A study of Mus musculus with 8 samples.

Results

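Brain-derived neurotrophic factor (BDNF), neurotrophin-3, the receptors that bind them and the BDNF-induced gene Vgf were examined in the hippocampus of young male mice that had been anesthetized repeatedly with ketamine. The genes are listed by their role in the pathway, and the rows whose Ensembl identifier belongs to Bdnf, Ntf3, Ntrk2, Ntrk3, Ngfr or Vgf were taken, which gave 6 of the 20802 genes in the table. All 6 passed the filter on low values described below.

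Hippocampal RNA was sequenced from 8 male C57BL/6 mice, 4 each in the Anesthesia and Control groups. Anesthesia mice were given ketamine intraperitoneally at 35 mg per kg on 5 consecutive days from postnatal day 16. Control mice were given saline, per the protocol, although their titles describe them as untreated. Tissue was collected about 1 week after the last injection, at the labelled age of postnatal day 28.

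Neurotrophins are secreted growth factors that are made as precursors, cleaved by proteases and released from dense-core vesicles, in part in response to neuronal activity. BDNF acts mainly through TrkB, the product of Ntrk2, and neurotrophin-3 mainly through TrkC, the product of Ntrk3, and both receptors signal through adaptor proteins to the MAP kinase, PI3 kinase and phospholipase C gamma cascades. The p75 receptor, the product of Ngfr, binds all mature neurotrophins with lower affinity and also binds their precursors. In the hippocampus BDNF and TrkB are known for their part in synaptic plasticity, and BDNF and TrkB have been widely studied in relation to ketamine.

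Each library held about 15400000 to 22200000 reads in the listed genes, as estimated from the spacing of low values. The deposited values are normalized counts, and limma was run on log2(value + 1) over 18865 genes, those averaging 10 or more, with p-values adjusted over all of these genes by the Benjamini-Hochberg method. No gene passed an adjusted p of 0.05 by limma (0 of 18865 genes, 0%). An unadjusted p under 0.05 was found for 1513 genes (8.02%) by limma and 1468 by limma voom. The paper, which fitted a count model to read counts, does report genes that differ between the groups. The absence of such genes here therefore describes limma on the normalized values, and the reason for the difference was not tested. The groups did not overlap in 950 genes (5.04%). Choroid plexus markers differed widely between libraries, with sums of 510 to 66987 normalized counts per mouse, and all 10 had a lower mean log2 level after anesthesia (median log2 fold change -1.95). Markers of hippocampal pyramidal and dentate neurons were present in every library, with sums of 15319 to 19482 normalized counts for the CA1 list and 6328 to 12322 for the dentate list. Because the tissue was not separated into cells, fewer cells of a type and less RNA per cell cannot be told apart. P-values from limma weigh the difference between the groups against the spread between these mice. That spread was drawn toward the trend over all genes. Permutation p-values compare a result with its values over rearrangements of these mice.

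Levels of the neurotrophin genes and their receptors did not pass the test for a difference between the groups. Of the 6 genes, none passed an adjusted p of 0.05 by limma (0 of 6, against 0% of all genes tested by limma). At an unadjusted p under 0.05 there were 2 of the 6, against 8.02% of all genes, namely Vgf on the higher side, where 4.75% of all genes lay, and Ngfr on the lower side, where 3.27% lay. The values of the groups overlapped in every one of the 6 genes, and by that measure 0 of 6 were set apart, compared with 5.04% of all genes. The receptors Ntrk2 and Ntrk3 had the narrowest intervals, and Ngfr the widest.

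**Figure D1:**
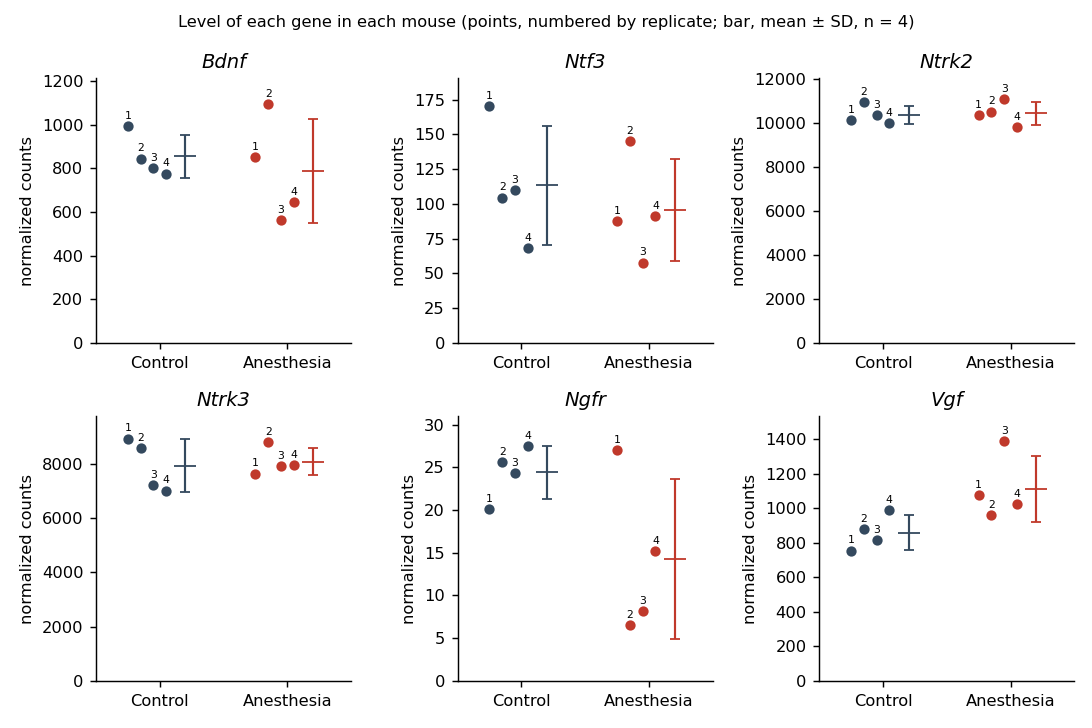
Normalized counts (vertical axes, from 0) of the 6 genes in each mouse, with Control mice in dark blue and Anesthesia mice in red, numbered by replicate, and the mean ± SD of each group (n = 4) beside the points. The groups overlap in every panel, Vgf is above all Control mice in 3 of the 4 Anesthesia mice, and Ngfr is below all Control mice in 3 of the 4.

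Bdnf (ENSMUSG00000048482, chromosome 2, 109674700 to 109727007 on GRCm38, plus strand) encodes the main neurotrophin of the adult forebrain. It is transcribed from several alternative promoters onto a shared coding exon, and the annotation lists 11 coding transcripts, whereas the table holds 1 value per mouse for the whole gene. Use of single promoters was therefore not measured. RefSeq promoter windows on GRCm38.p6, each from 250 bases before to 50 after a transcript start, were matched for 4 of the 6 genes, with 7 windows for Bdnf, 2 for Ntf3 and 1 each for Ntrk2 and Ngfr. Motifs were sought only in the 250 bases before each start. The element TCACGTCA, the cAMP response element described in an activity-dependent Bdnf promoter, was searched on both strands and was found in 1 of the 7 Bdnf windows and in 0 windows of the other genes, against 115 of 32851 windows in all (0.350%). The 250 bases before the start of that window are shown because the regulators described below include coactivators of the factor CREB, which binds this kind of element. They lie at chr2:109692186-109692435 on the plus strand, the element is in capitals, and the first transcribed base is 109692436.
Bdnf promoter: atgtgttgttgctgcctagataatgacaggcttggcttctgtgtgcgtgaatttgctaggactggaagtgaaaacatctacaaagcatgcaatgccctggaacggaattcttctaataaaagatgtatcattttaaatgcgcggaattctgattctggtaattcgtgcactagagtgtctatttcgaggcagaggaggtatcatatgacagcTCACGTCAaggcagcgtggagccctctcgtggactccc
The palindromic form TGACGTCA, which differs from it by 1 letter, was in 0 windows of the matched genes and in 508 of all windows (1.55%). The E-box CACGTG, a motif bound by USF factors that shares CACGT with the first element, was in 1 of the 2 Ntf3 windows and in 1978 of all windows (6.02%). These matches describe the letters in the windows, and binding was not measured.

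Levels of Bdnf in the Anesthesia mice were 852.0, 1095.9, 562.5 and 645.9 normalized counts in replicates 1 to 4. Levels in the Control mice were 995.8, 844.8, 803.1 and 776.7. The highest and the lowest of all 8 values were both in the Anesthesia group, so the Control values lay inside the Anesthesia range. The mean was 789.1 ± 238 after anesthesia and 855.1 ± 97.9 in Control mice (SD, n = 4 each), which is a coefficient of variation of 30.2% against 11.4%. The log2 fold change was -0.16 (standard error 0.18, 95% interval -0.56 to 0.24, adjusted p = 0.817 from limma), that is a fold of 0.897 with an interval from 0.679 to 1.18, and an exact two-sided permutation test gave p = 0.514. The difference rested on single mice. Without Anesthesia replicate 2 the log2 fold change was -0.33 (unadjusted p = 0.0405, adjusted p = 0.533 from limma), and without Anesthesia replicate 3 it was -0.011.

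Ntf3 (ENSMUSG00000049107, chromosome 6, 126101412 to 126166910, minus strand) encodes neurotrophin-3, the preferred ligand of TrkC. Its levels were 87.4, 145.4, 57.8 and 91.4 normalized counts in the Anesthesia mice. In the Control mice they were 170.5, 104.5, 110.1 and 67.9. The groups overlapped over most of their range, with Control replicate 1 the highest and Anesthesia replicate 3 the lowest. Means were 95.5 ± 36.5 and 113.2 ± 42.5 normalized counts in the Anesthesia and Control groups (SD, n = 4 each). The log2 fold change was -0.24 (standard error 0.31, 95% interval -0.93 to 0.44, adjusted p = 0.832 from limma; exact permutation p = 0.543). It was -0.47 without Anesthesia replicate 2, -0.46 without Control replicate 4, -0.032 without Anesthesia replicate 3 and -0.024 without Control replicate 1. The SD within groups, 0.54 on the log2 scale, was larger than that of 90.4% of the genes tested, and that of Bdnf, 0.32, was larger than that of 73.1%.

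Ntrk2 (ENSMUSG00000055254, chromosome 13, 58806569 to 59133970, plus strand) encodes TrkB, the receptor tyrosine kinase for BDNF. It was measured at 10378.7, 10528.8, 11088.0 and 9818.8 normalized counts in the Anesthesia mice. The Control mice had 10162.7, 10954.3, 10369.6 and 10015.2. Each group held values above and below those of the other, and the Anesthesia group held both extremes. Means were 10454 ± 521.8 and 10376 ± 412.4 normalized counts (SD, n = 4 each), and on the log2 scale they differed by 0.010 (standard error 0.054, adjusted p = 0.967 from limma; exact permutation p = 0.83). The 95% interval, -0.11 to 0.13, corresponds to a fold of 0.927 to 1.09. The SD within groups was 0.065 on the log2 scale, and only 5.26% of the genes tested had a smaller one. The annotation lists 7 coding transcripts of Ntrk2 with products of 466 to 821 residues. The full-length receptor with its kinase domain and the truncated receptor without it, the form abundant in astrocytes, share the value of this row, so the balance between them was not measured.

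Ntrk3 (ENSMUSG00000059146, chromosome 7, 78175959 to 78738012, minus strand) encodes TrkC, the receptor for neurotrophin-3, and also has truncated forms. Its annotated coding entries span 82 to 864 residues. The shortest entry has 248 coding bases, which is not a whole number of codons, so it is not a complete product. Its levels were 7634.0, 8797.4, 7919.0 and 7946.6 normalized counts in the Anesthesia mice. They were 8924.3, 8584.3, 7220.3 and 7010.7 in the Control mice. Here the Control group held both extremes, with replicates 1 and 2 high and replicates 3 and 4 low. The log2 fold change was 0.031 (standard error 0.085, 95% interval -0.16 to 0.22, adjusted p = 0.933 from limma; exact permutation p = 0.771), from means of 8074 ± 502.3 and 7935 ± 960.1 (SD, n = 4 each). Transcripts of other annotated genes overlap both receptor genes and have rows of their own, 3 within Ntrk2 and 4 within Ntrk3, some of them on the opposite strand. The strand setting of the quantification is not given in the sources used here, and shared exon sequence was not examined. Whether reads from such neighbours entered the values of the receptors was therefore not measured.

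Ngfr (ENSMUSG00000000120, chromosome 11, 95568818 to 95587735, minus strand) encodes the p75 receptor, which in the mature forebrain is best known from cholinergic neurons of the septum and basal forebrain. Its level was low, at about 6.04 to 30.1 reads per library. The Anesthesia mice had 27.0, 6.53, 8.20 and 15.2 normalized counts. The Control mice had 20.1, 25.6, 24.4 and 27.5. Anesthesia replicates 2, 3 and 4 were below every Control mouse, and Anesthesia replicate 1 was above 3 of the 4. Means were 14.2 ± 9.33 after anesthesia and 24.4 ± 3.13 in Control mice (SD, n = 4 each). The log2 fold change was -0.92 (standard error 0.39, 95% interval -1.80 to -0.048, unadjusted p = 0.0406, adjusted p = 0.622 from limma), a fold of 0.528 with an interval from 0.288 to 0.967. In the exact two-sided permutation test, which cannot give a p below 0.0286 with 4 against 4 mice, p was 0.114.

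Ngfr was highest in libraries with high levels of choroid plexus markers, and the libraries fell into a set with high and a set with low levels of these markers. Among the 4 libraries with high levels, with sums of 26622 to 66987 normalized counts over the 10 markers, Ngfr was 27.0 in Anesthesia replicate 1 and 24.4 to 27.5 in Control replicates 2, 3 and 4. Among the 4 with low levels, with sums of 510 to 3487, Ngfr was 6.53 to 15.2 in Anesthesia replicates 2, 3 and 4 and 20.1 in Control replicate 1. Each set thus held only 1 mouse of one of the groups, and the difference could not be tested within a set. Over the 8 mice Pearson's r between Ngfr and the choroid plexus list was 0.817 (exact permutation p = 0.00955, adjusted p = 0.224). Spearman's rho was 0.738 (exact permutation p = 0.0458, adjusted p = 0.49). This r was 0.918 within the Anesthesia mice and 0.891 within the Control mice. With the choroid plexus level as a covariate the log2 fold change of Ngfr was -0.51 (unadjusted p = 0.176, adjusted p = 0.979 from limma). Without Anesthesia replicate 1 it was -1.28 (unadjusted p = 0.00355, adjusted p = 0.30 from limma), and without Anesthesia replicate 2 it was -0.65. Of 7 listed markers of cholinergic neurons 4 were found, and only 2 of these passed the filter on low values. The 4 were low in both groups, with sums of 59.9 to 115.4 normalized counts in the Anesthesia mice and 57.5 to 235.2 in the Control mice. Chat was at 0 in Control replicate 4. Over the 8 mice Pearson's r between Ngfr and this list was -0.073 (exact permutation p = 0.852, adjusted p = 0.945) and Spearman's rho was -0.24 (exact permutation p = 0.582, adjusted p = 0.928).

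Vgf (ENSMUSG00000037428, chromosome 5, 137026392 to 137033351, plus strand) encodes a secreted neuropeptide precursor of dense-core vesicles whose transcription is induced by neurotrophins such as BDNF. Among the 6 genes it had the smallest p. Its levels were 1076.6, 957.9, 1385.5 and 1021.3 normalized counts in the Anesthesia mice. They were 753.4, 876.3, 815.5 and 987.4 in the Control mice. The groups overlapped at a single point, with Anesthesia replicate 2 below Control replicate 4, and Anesthesia replicate 3 was the highest of all. Means were 1110 ± 189.8 and 858.1 ± 99.7 normalized counts (SD, n = 4 each). The log2 fold change was 0.36 (standard error 0.12, 95% interval 0.097 to 0.63, unadjusted p = 0.0123, adjusted p = 0.620 from limma), a fold of 1.29 with an interval from 1.07 to 1.55. By unadjusted p it ranked 355 of the 18865 genes, and the exact permutation p was 0.0571. Leaving out Anesthesia replicate 3 gave a log2 fold change of 0.25, and over all mice left out in turn it lay between 0.25 and 0.43.

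**Figure D2:**
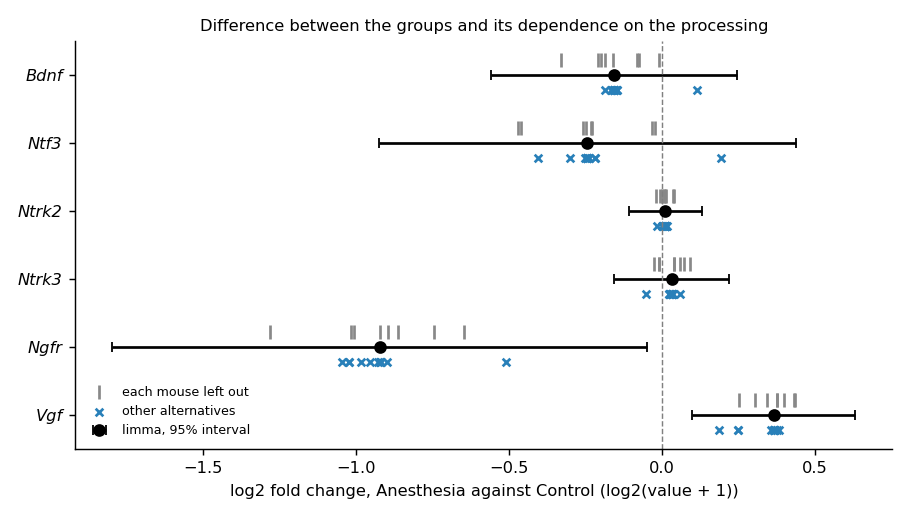
Log2 fold change of each gene, Anesthesia against Control, on log2(value + 1) (horizontal axis), with points and bars for the limma estimate and its 95% interval, grey ticks for each mouse left out in turn and blue crosses for the other alternatives. The intervals of Vgf (0.097 to 0.63) and Ngfr (-1.80 to -0.048) leave out 0 before adjustment, and the crosses of Bdnf and Ntf3 on the positive side come from the neocortex marker list as a covariate.

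Levels were compared between genes only after division by transcript length, taken as the median over the annotated coding transcripts. Per kilobase of transcript, Ntrk2 had a mean of 3416 normalized counts and Ntrk3 of 2936 over the 8 mice. The ranges of these receptors overlapped, since the lowest mouse for Ntrk2 had 3220 and the highest for Ntrk3 had 3274. Vgf followed at 407.6, then Bdnf at 210.5, Ntf3 at 74.6 and Ngfr at 5.61 normalized counts per kilobase. From Ntrk3 down, with the median length, the range of each gene over the mice lay wholly above that of the next. The narrowest of these gaps was between Vgf, at 312 in its lowest mouse, and Bdnf, at 280.6 in its highest. Transcripts of the receptors vary much in length, and with the longest annotated transcript the means were 1191 for Ntrk2, 406.3 for Ntrk3 and 347.3 for Vgf. With that length Ntrk3, at 356 in its lowest mouse, overlapped Vgf, at 489 in its highest, whereas Ntrk2, at 1123 in its lowest mouse, lay above Ntrk3.

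**Figure D3:**
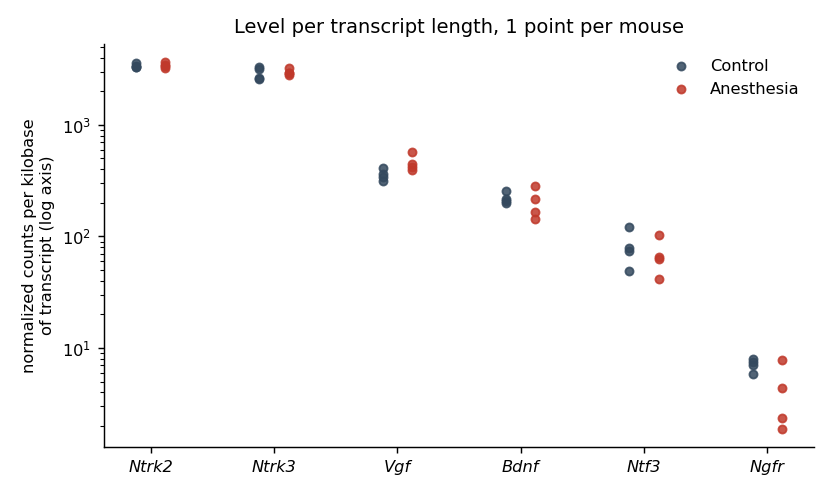
Normalized counts per kilobase of transcript (log axis) of the 6 genes in each mouse, ordered by mean, with Control mice in dark blue and Anesthesia mice in red. Ntrk2 and Ntrk3 overlap, and each following gene lies below the one before it, from Vgf at 312 to 573.7 down to Ngfr at 1.90 to 7.98.

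The ligand genes varied together over the mice, and Vgf varied the opposite way. Over the 8 mice Bdnf and Ntf3 had a Pearson's r of 0.835 (exact permutation p = 0.00995, adjusted p = 0.116 over 15 pairs of genes) and a Spearman's rho of 0.762 (exact permutation p = 0.0368, adjusted p = 0.276). Pearson's r was 0.650 without the pair of mice farthest from the median of Bdnf. Within the groups it was 0.903 in the Anesthesia mice and 0.911 in the Control mice. Ntf3 and Vgf had an r of -0.807 (exact permutation p = 0.0155, adjusted p = 0.116) and a rho of -0.857 (exact permutation p = 0.0107, adjusted p = 0.161), with -0.923 within the Anesthesia and -0.974 within the Control group. Without the pair of mice farthest from the median of Ntf3 this r was -0.408. For Bdnf and Vgf r was -0.695 (exact permutation p = 0.0545, adjusted p = 0.273) and rho was -0.548 (exact permutation p = 0.171, adjusted p = 0.427). None of the 15 pairs passed the adjustment. No r between a ligand and its own receptor passed it either, with -0.122 for Bdnf and Ntrk2 (exact permutation p = 0.770, adjusted p = 0.888) and 0.666 for Ntf3 and Ntrk3 (exact permutation p = 0.0730, adjusted p = 0.274).

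Levels of the ligand genes also varied over the mice with several lists of hippocampal neuron markers, and not with those of dentate granule neurons alone. The 8 markers of dentate granule neurons, among them the transcription factor gene Prox1, summed to 7906, 12322, 6341 and 8152 normalized counts in Anesthesia replicates 1 to 4. In Control replicates 1 to 4 they summed to 10878, 8190, 8620 and 6328. In this list 0 of 8 markers passed the threshold by limma, with 3 on the higher and 5 on the lower side, and a median log2 fold change of -0.015. Anesthesia replicate 2 and Control replicate 1 were the highest in dentate markers as they were in Bdnf and Ntf3, and Anesthesia replicate 3 was among the lowest in all of these. Of 102 relations between the 6 genes and 17 marker lists, 0 passed the adjustment, and the strongest r was that of Ntf3 with the mean log2 level of the dentate list, at 0.934 (exact permutation p = 0.00283, adjusted p = 0.224; rho 0.881, exact permutation p = 0.00724, adjusted p = 0.370). This r was 0.928 without the pair of mice farthest from the median, 0.986 within the Anesthesia mice and 0.992 within the Control mice. For Bdnf and the dentate list r was 0.80 (exact permutation p = 0.0173, adjusted p = 0.224). Its rho was 0.690 (exact permutation p = 0.0694, adjusted p = 0.499). This r was 0.445 without the farthest pair, so that it rested in part on those mice. Within the groups it was 0.902 in the Anesthesia mice and 0.869 in the Control mice. For Bdnf the strongest r was with the 8 markers of GABAergic interneurons, at -0.882 (exact permutation p = 0.00486, adjusted p = 0.224). Its rho was -0.833 (exact permutation p = 0.0154, adjusted p = 0.370). This r also fell without the farthest pair, to -0.540. It was -0.965 within the Anesthesia mice and -0.41 within the Control mice. With the 6 markers of CA3 pyramidal neurons r was 0.793 (exact permutation p = 0.0191, adjusted p = 0.224). Its rho was 0.714 (exact permutation p = 0.0576, adjusted p = 0.489). This r was 0.833 without the farthest pair, 0.913 within the Anesthesia mice and 0.43 within the Control mice. The corresponding values of r for Ntf3 were -0.817 with the GABAergic list (exact permutation p = 0.0136, adjusted p = 0.224) and 0.75 with the CA3 list (exact permutation p = 0.0314, adjusted p = 0.231). With the CA1 list r was negative, at -0.32 for Bdnf and -0.57 for Ntf3 (exact permutation p = 0.436 and 0.142). Outside the hippocampal lists, r with neocortex markers was -0.79 for Bdnf (exact permutation p = 0.0212, adjusted p = 0.224). For Ntf3 it was -0.76 (exact permutation p = 0.028, adjusted p = 0.231). With the dentate list as a covariate the log2 fold change of Ntf3 was -0.30 (unadjusted p = 0.0390, adjusted p = 0.476 from limma) and that of Bdnf was -0.19 (unadjusted p = 0.12, adjusted p = 0.565 from limma).

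Vgf, in contrast, was highest in the mice with the highest levels of markers of neocortex. The 6 markers summed to 2493, 1517, 4145 and 2938 normalized counts in the Anesthesia mice and to 1756, 2323, 1399 and 2420 in the Control mice. Anesthesia replicate 3, the highest in Vgf, was also the highest in this list, and several of these genes are expressed in hippocampal neurons too. For Vgf and this list r was 0.867 (exact permutation p = 0.00697, adjusted p = 0.224) and rho was 0.833 (exact permutation p = 0.0154, adjusted p = 0.370), with 0.923 within the Anesthesia mice, 0.599 within the Control mice and 0.587 without the farthest pair of mice. With the list as a covariate the log2 fold change of Vgf was 0.19 (unadjusted p = 0.0800, adjusted p = 0.680 from limma), whereas Bdnf had 0.11 and Ntf3 had 0.19 in place of -0.16 and -0.24. The other lists fitted as covariates, dentate and choroid plexus, did not lower that of Vgf. It was 0.38 with the dentate list (unadjusted p = 0.000361, adjusted p = 0.358 from limma). With the choroid plexus list it was also 0.38 (unadjusted p = 0.0237, adjusted p = 0.979 from limma). Of the 6 neocortex markers, 6 had a higher mean log2 level after anesthesia, with a median of 0.49 and 0 past the threshold, so this list and the groups cannot be fully told apart with 4 mice each. In the nuclear-retained RNA list 5 of 6 transcripts were on the higher side (median log2 fold change 0.22), and 3 had an unadjusted p under 0.05, the smallest that of Miat (unadjusted p = 0.000352, adjusted p = 0.565 from limma). Its r with Vgf was 0.793 (exact permutation p = 0.0151, adjusted p = 0.224) and rho was 0.643 (exact permutation p = 0.0962, adjusted p = 0.516). This r was 0.518 without the farthest pair of mice, 0.726 within the Anesthesia mice and -0.561 within the Control mice. Vgf also varied opposite to hippocampal lists. Its r was -0.775 with the CA2 list (exact permutation p = 0.022, adjusted p = 0.224), and -0.458 without the farthest pair. With the CA3 list it was -0.754 (exact permutation p = 0.032, adjusted p = 0.231), and -0.782 without the farthest pair. Fits of Vgf with the nuclear-retained RNA, CA2 or CA3 list as a covariate were not made.

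**Figure D4:**
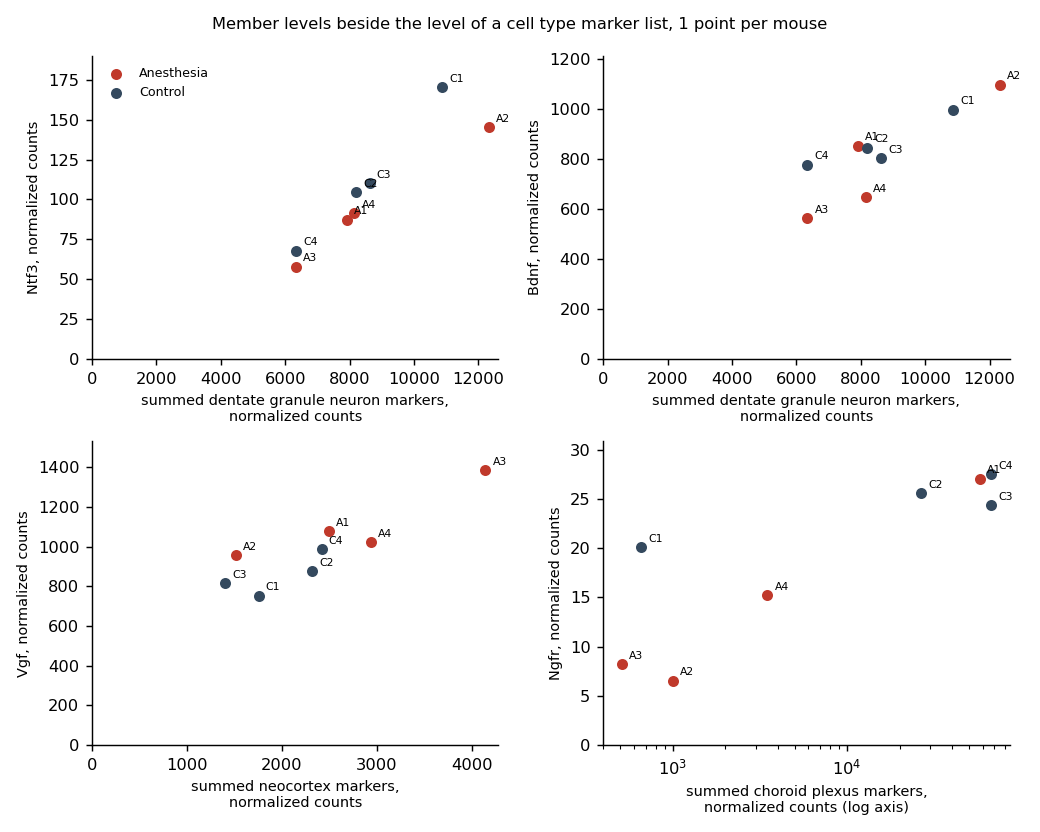
Normalized counts of a gene (vertical axes) against the summed normalized counts of a marker list (horizontal axes), 1 point per mouse, with Anesthesia mice in red and Control mice in dark blue, labelled by group letter and replicate. Ntf3 and Bdnf are highest in the mice with the highest dentate marker sums, Vgf is highest in Anesthesia replicate 3, and on a log axis the mice divide into low (510 to 3487) and high (26622 to 66987) choroid plexus sums, with Ngfr at 24.4 to 27.5 in the high set.

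The genes most alike to each of the 6 were sought among 12249 genes with a mean of at least 100, by Pearson's r over the 8 mice. Bdnf was most like Cyp7b1 (r 0.986), an oxysterol hydroxylase gene, and Akap11 (r 0.983), an anchoring protein for protein kinase A. Ntf3 was most like Mcm6 (r 0.989), a subunit of the replicative helicase, and Znrd1 (r 0.973), which encodes an RNA polymerase I subunit. For Vgf they were Ptprm (r 0.978), a receptor tyrosine phosphatase gene, and Pcnx2 (r 0.977). For the receptors they were Zbtb45 and Hnrnpu with Ntrk2 (r 0.978 and 0.955), Pdzrn4 and Srpk1 with Ntrk3 (r 0.963 and 0.949), and Maged2 and Npr3 with Ngfr (r 0.992 and 0.981). With 8 points and this many genes, high values of r are found for any gene, and they are given as a description.

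Other genes of the pathway were taken from 6 lists of 122 genes, of which 118 were tested. No gene of these lists passed an adjusted p of 0.05. An unadjusted p under 0.05 was found for 8 (6.78%), all on the higher side, against 8.02% of all genes tested. In 8 genes the groups did not overlap (6.78%), 7 higher and 1 lower, against 5.04% of all genes. The fitted difference was positive in 66 and negative in 52, with a median log2 fold change of 0.0066 beside -0.0036 for all genes. The 2 genes of smallest p in the lists, Crtc1 and Rapgef1, had a regulatory or signalling role and not that of a ligand or receptor.

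Among neurotrophin ligands and the enzymes that process them, 12 of 15 listed genes were tested, 5 with a positive and 7 with a negative difference (median log2 fold change -0.031), and 0 had an unadjusted p under 0.05 by limma. Pcsk5, a proprotein convertase gene, had a log2 fold change of 0.18 (adjusted p = 0.695 from limma), which was 0.11 without Anesthesia replicate 1 or Control replicate 3 and 0.27 without Anesthesia replicate 2. Cpe encodes carboxypeptidase E, which trims peptides and sorts pro-BDNF to the regulated pathway, and had 35113 ± 1141 against 36887 ± 592.9 normalized counts (SD, n = 4 each). Its groups did not overlap, with a log2 fold change of -0.072 (adjusted p = 0.699 from limma). Ntf5, Plg and Mmp3 were not analysed here.

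Among receptors, co-receptors and sorting proteins, 12 of 13 genes were tested, 8 with a positive and 4 with a negative difference (median 0.011), and 0 had an unadjusted p under 0.05 by limma. Maged1, which encodes a p75-interacting protein, had 8813 ± 717.1 normalized counts after anesthesia and 9658 ± 226.9 in Control mice (SD, n = 4 each), and its log2 fold change was -0.14 (adjusted p = 0.627 from limma). Hap1, a gene for a trafficking protein of BDNF and TrkB, had a log2 fold change of -0.30 (adjusted p = 0.671 from limma) and Rtn4r, the gene of the Nogo receptor that pairs with p75, had 0.31 (adjusted p = 0.672 from limma). These values moved with single mice, since Maged1 had -0.083 and Rtn4r 0.14 without Anesthesia replicate 3, Rtn4r had 0.46 without Anesthesia replicate 1, and Hap1 had -0.15 without Anesthesia replicate 2.

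Downstream of the receptors, all 42 listed adaptors and kinases of Trk signalling were tested, with 22 positive and 20 negative differences and a median log2 fold change of 0.0052. An unadjusted p under 0.05 was seen in 3 of the 42, all higher, a share close to the 8.02% of all genes tested (4.75% on the higher side). Rapgef1, which encodes a guanine nucleotide exchange factor that activates Rap1 below Trk receptors, had 1202 ± 169.7 normalized counts after anesthesia and 911.1 ± 65.7 in Control mice (SD, n = 4 each). Its lowest Anesthesia mouse, at 1040, was above its highest Control mouse, at 954.9, and its log2 fold change was 0.39 (standard error 0.10, unadjusted p = 0.00291, adjusted p = 0.568 from limma). Sh2b2, an adaptor gene, had a log2 fold change of 0.66 (adjusted p = 0.620 from limma) at 74.5 ± 22.4 against 46.4 ± 13.4 normalized counts, with overlapping groups. Shc3, the neuronal Shc adaptor, had 1197 ± 230.4 against 977.8 ± 26.1 normalized counts without overlap and a log2 fold change of 0.27 (adjusted p = 0.622 from limma). It was 0.15 without Anesthesia replicate 3 (unadjusted p = 0.0544, adjusted p = 0.845 from limma) and 0.13 with the neocortex covariate. After the correction for GC content and transcript length Rapgef1 had 0.25 (unadjusted p = 0.0179, adjusted p = 0.746 from limma).

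Regulators of Bdnf transcription gave the most genes with an unadjusted p under 0.05, at 4 of 21, all higher. Of all genes tested 8.02% were under it, 4.75% on the higher side. The list was chosen with earlier results of these data known, so the count is a description and not a test. The median of the list was 0.0045 and 12 of its genes were positive and 9 negative. Crtc1, a coactivator that carries calcium and cAMP signals to CREB, had 856.7 ± 103.6 normalized counts after anesthesia and 660.7 ± 41.6 in Control mice (SD, n = 4 each). The lowest Anesthesia mouse, at 711.7, was just below the highest Control mouse, at 717.2, and the log2 fold change was 0.37 (standard error 0.095, unadjusted p = 0.00288, adjusted p = 0.568 from limma). It was 0.21 after the correction for GC content and transcript length (unadjusted p = 0.0207, adjusted p = 0.746 from limma). Crebbp, the CREB-binding acetyltransferase gene, had 2546 ± 152.2 against 2164 ± 107.4 normalized counts (SD, n = 4 each) without overlap, and its log2 fold change was 0.23 (standard error 0.063, unadjusted p = 0.00360, adjusted p = 0.568 from limma). Usf2, a factor that binds E-boxes, had a log2 fold change of 0.17 (adjusted p = 0.622 from limma), with 632.8 in its lowest Anesthesia and 631.3 in its highest Control mouse. Other genes of the CREB family and its coactivators in this list did not all follow. Creb1 had a log2 fold change of -0.025, Crem 0.0013, Crtc2 0.0045 and Atf1 0.34 (adjusted p = 0.933, 0.997, 0.997 and 0.636 from limma). Bdnf itself had a log2 fold change of -0.16 in the same mice, as given above.

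Genes induced by BDNF and TrkB signalling, other than Vgf, were tested in 19 of 19 cases, with 11 positive and 8 negative differences, a median log2 fold change of 0.017 and 0 with an unadjusted p under 0.05 by limma. The 3 with the smallest p were Spry2, a feedback inhibitor of receptor tyrosine kinases, at 0.18 (adjusted p = 0.649 from limma), Ccn1, a matricellular protein gene, at -0.40 (adjusted p = 0.652 from limma), and Egr3, an immediate early transcription factor gene, at 0.16 (adjusted p = 0.677 from limma), which was 0.079 without Anesthesia replicate 3. In the list of dense-core vesicle cargo and secretion, the compartment of BDNF and VGF, 8 of 12 genes were positive and 4 negative, with a median of 0.024. Ptprn, which encodes a dense-core vesicle membrane protein, was the 1 gene with an unadjusted p under 0.05, at 2546 ± 253 against 2226 ± 106.1 normalized counts (SD, n = 4 each) without overlap and a log2 fold change of 0.19 (adjusted p = 0.620 from limma), and without Anesthesia replicate 3 it had 0.12 (unadjusted p = 0.0599, adjusted p = 0.845 from limma). With the neocortex covariate Ptprn had 0.093. The granin gene Scg2 had a log2 fold change of -0.15 (adjusted p = 0.669 from limma) and the vesicle priming gene Cadps2, linked to BDNF release, had -0.16 (adjusted p = 0.745 from limma). Without Anesthesia replicate 3 they had -0.088 and -0.077, without Control replicate 1 Scg2 had -0.10, and without Control replicate 2 Cadps2 had -0.076.

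**Figure D5:**
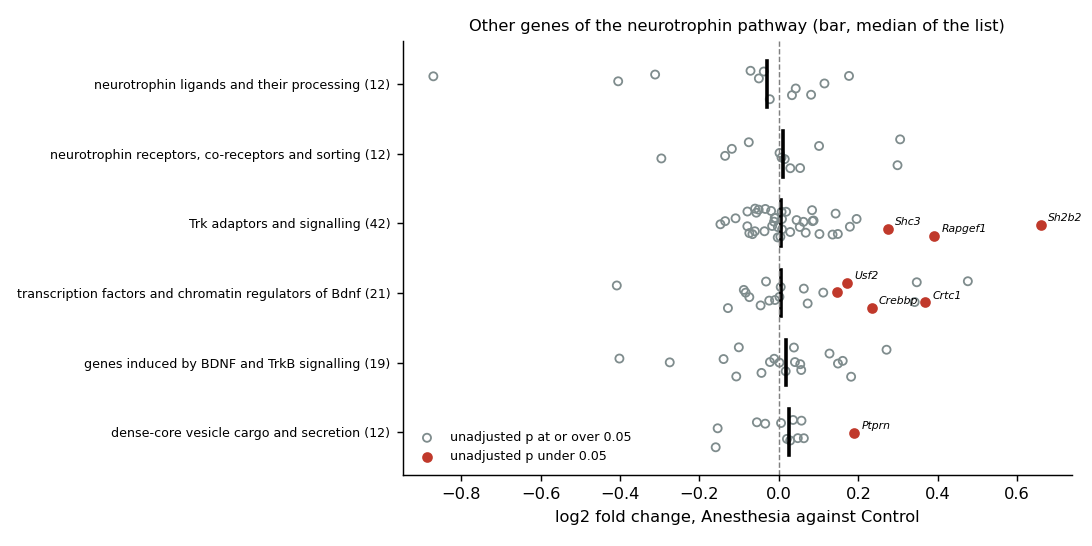
Log2 fold change, Anesthesia against Control (horizontal axis), of the 118 tested genes in 6 lists, with a black bar at the median of each list, filled red points for an unadjusted p under 0.05 and open points for the others. The medians lie between -0.031 and 0.024, and the 8 filled points are all on the positive side, 4 of them in the list of Bdnf regulators.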

How the data were processed

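Reads were quantified by the authors with Salmon 1.1.0 on GRCm38 with GC bias correction, summarised per gene and normalized with DESeq2 1.30.1. The deposited normalized counts are thus a signal divided by size factors, not read counts, and 45.9% to 68.3% of low values lay within 0.1 of whole reads, so no count model was used. The paper names a stranded total RNA kit and the labels another TruSeq kit, which was not resolved. Symbols came from GENCODE M21 (20784 of 20802 rows matched). Differences were tested with limma 3.58.1 in R 4.3.3 (mean-variance trend, log2(value + 1), mean of at least 10 over the mice, Benjamini-Hochberg adjustment), which was tested on simulated data. This scale understates differences of genes with low values. Permutation tests used all 70 arrangements of the 8 mice, and those of correlations all orders of the mice. Correlations were computed on log2(value + 1). Genes named were the 6 members, the 3 with the smallest p in each list and the 2 most alike to each member. Further CREB family genes of the regulator list were named beside them. Some genes of the lists are not reported here. The members and lists were chosen with earlier results of these data known. Alternatives were limma voom, other scalings, filters, another pseudocount (0.1), a block for replicate number, a correction for GC content and transcript length, a choroid plexus covariate and each mouse left out, and after seeing the data dentate and neocortex covariates were added.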

Additional observations from a re-analysis of the deposited data

Results flagged for a closer look

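Among the 48 groups of 4 values examined, 2.4 would be set apart by chance and 1 was. Egr3, an immediate early gene in the list induced by BDNF and TrkB signalling, had 557.4 normalized counts in Anesthesia replicate 3, which lay far from the other 3 Anesthesia mice, at 433.2 to 452. The gap to the nearest of them was 0.849 of the range of the group, over the limit that Dixon's test sets for 4 samples. The same mouse had the highest Vgf and the lowest Bdnf and Ntf3.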

How the results depend on the processing

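Of 119 log2 fold changes of the 6 genes under 20 alternative fits, 109 had the same sign and none passed an adjusted p of 0.05. The 10 with the other sign were Bdnf at 0.11, Ntf3 at 0.19 and Ntrk2 at -0.016 with the neocortex covariate, Ntrk2 at -0.0016 and Ntrk3 at -0.053 with the choroid plexus covariate, Ntrk2 at -0.018 without Anesthesia replicate 3 and -0.0064 without Control replicate 4, and Ntrk3 at -0.011 without Anesthesia replicate 2, -0.012 without Control replicate 3 and -0.026 without Control replicate 4. The cause was not tested. Over all alternatives Vgf lay between 0.19 and 0.43, with an unadjusted p under 0.05 in 18 of 20, and Ngfr between -1.28 and -0.51, in 11 of 19. Vgf was 0.25 after the correction for GC content and transcript length (unadjusted p = 0.0374, adjusted p = 0.746 from limma). With each mouse left out in turn, Ntrk2 lay between -0.018 and 0.040, Ntrk3 between -0.026 and 0.090, and 0 to 2 of all genes had an adjusted p under 0.05, and 2 did without Control replicate 1. Replicate numbers did not pair the mice (correlations of deviations -0.242, -0.109, -0.182 and 0.0194). With the replicate block 0 genes passed, 1084 against 1513 had an unadjusted p under 0.05, and Ngfr had an unadjusted p of 0.0587 from limma. That number was 929 with the block and the GC correction and 826 with the choroid plexus covariate. Ngfr rests on about 6.04 to 30.1 reads per library, and requiring a mean of at least 100 gave no value for it.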
